A study of Rattus norvegicus with 12 samples.

Results

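The Cyp4a and Cyp4f genes encode cytochrome P450 enzymes that hydroxylate the end of fatty acid chains. The members described here were Cyp4a1, Cyp4a2, Cyp4a3, Cyp4a8, Cyp4f1, Cyp4f4 and Cyp4f6. They were found by matching the transcript named for each probe, without its version, to these 7 genes in a rat RefSeq table. This gave 11 of the 45598 probes on the array. All 11 passed the filter on dim probes and lay above background on all 12 arrays, and none was saturated. The 7 genes were among 20359 genes or transcripts tested, of which 10685 were named genes. Where the text below speaks of all genes, it means all 20359, with the unnamed transcripts.

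Cyp4a enzymes carry out omega-hydroxylation, the first step of a side route of fatty acid breakdown in the endoplasmic reticulum, which alcohol and aldehyde dehydrogenases continue to dicarboxylic acids that peroxisomes shorten. Their genes are textbook targets of the fatty acid receptor PPARalpha, which binds DNA with RXR at repeats of the half-site AGGTCA, and they are the usual markers of peroxisome proliferation in rodent liver. Cyp4a enzymes also make 20-HETE from arachidonic acid. Rat Cyp4f enzymes hydroxylate leukotriene B4 and other eicosanoids.

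The cells were primary hepatocytes of male rats of the Sprague Dawley strain, thawed from cryopreserved stock. Exposure lasted 24 h and followed 24 h of culture. The groups were 30 µM triclosan, 30 µM diclosan, 30 µM 1-chloro-3-(4-chlorophenoxy) benzene (abbreviated CCPB here) and the vehicle DMSO, with 3 one-colour arrays each. Triclosan, an antibacterial agent, is a chlorinated diphenyl ether with a phenolic hydroxyl group. Diclosan keeps that hydroxyl group and has a single chlorine atom fewer. CCPB has as many chlorine atoms as diclosan, lacks the hydroxyl group and carries a chlorine atom meta instead of para to the ether oxygen. The labels speak of independent experiments and do not say whether these used different animals or lots, so the p-values measure the spread between these experiments.

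A level below is the log2 intensity of a probe minus the 75th percentile of its array, so 0 is the level of that percentile and 1 unit is a doubling. It describes 1 probe and is not compared between genes. Between 51.6% and 55.5% of probes per array were above background. All 10 hepatocyte markers were measured and their summed level, in multiples of the 75th percentile, was 2171 to 2285 with triclosan, 2156 to 2245 with diclosan, 2281 to 2337 with CCPB and 2226 to 2322 with DMSO. The file headers name 2 slides. The first carried all triclosan and DMSO arrays with 2 diclosan arrays (replicates 1 and 2). The second carried all CCPB arrays with diclosan replicate 3. On the first principal component, with 40.6% of the variance, diclosan replicate 3 scored 12.9 and stood apart from diclosan replicates 1 and 2 at -12.4 and -13.6. The CCPB arrays scored 24.5 to 27.1 and the triclosan and DMSO arrays -14.9 to -6.12. No slide held both CCPB and DMSO or both CCPB and triclosan. Values with the slide as a block are therefore given beside the differences, and for CCPB that block rests on the step from diclosan replicates 1 and 2 to replicate 3.

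Promoter sequences from the RefSeq table (build GRCr8) were at hand for 5 of the 7 genes, namely Cyp4a2, Cyp4a3, Cyp4a8, Cyp4f1 and Cyp4f6, as 300 bases from 250 before to 50 after the gene start. The Cyp4a genes lie on chromosome 5 and the Cyp4f genes on chromosome 7. In gene order no gene stands between Cyp4a3 and Cyp4a1, or between Cyp4f1 and Cyp4f6. The promoters of Cyp4a2 and Cyp4a3 are shown because they were nearly the same in sequence, and because they alone of the 5 held the half-site. The 250 bases before the start are printed 5′ to 3′, Cyp4a2 at chr5:134170909-134171158 and Cyp4a3 at chr5:134352237-134352486, both on the minus strand, with AGGTCA in capitals.
Cyp4a2: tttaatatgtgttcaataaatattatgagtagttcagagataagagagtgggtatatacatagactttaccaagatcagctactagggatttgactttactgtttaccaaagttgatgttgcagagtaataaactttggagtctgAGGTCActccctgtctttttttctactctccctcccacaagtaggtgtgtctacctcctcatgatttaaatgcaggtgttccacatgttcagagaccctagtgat
Cyp4a3: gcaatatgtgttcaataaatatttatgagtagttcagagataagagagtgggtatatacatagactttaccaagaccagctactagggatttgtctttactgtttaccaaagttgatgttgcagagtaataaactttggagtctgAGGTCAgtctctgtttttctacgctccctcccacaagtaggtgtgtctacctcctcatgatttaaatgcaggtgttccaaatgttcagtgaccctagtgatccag
Aligned over their 300 bases, these promoters were identical in 284 of 305 columns (93.1%), against 46% to 59.1% for the other pairs of the 5 promoters. The half-site began 105 bases before the start, on the strand printed, in both. Searched on both strands, AGGTCA occurred in 16.2% of 33469 rat promoters of this length. The exact repeat AGGTCANAGGTCA, which contains the half-site, was in none of the 5 promoters and in 0.0538% of all. How far the Cyp4a2 and Cyp4a3 probes also read each other's transcript was not tested, since probe sequences were not used here.

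Against DMSO, Cyp4a1 was 1.24-fold and Cyp4a3 1.54-fold higher with CCPB, and the other 5 genes did not pass the test. Passing means a Benjamini-Hochberg adjusted p under 0.05 over all genes tested, from limma's linear model with group alone. Of all genes tested, 28.3% passed with CCPB in either direction. CCPB and DMSO shared no slide, so slide and compound cannot be told apart within that pair. Triclosan and diclosan moved none of the 7 genes past the test, where 0.0639% and 0.00982% of all genes passed. Cyp4a1 and Cyp4a3 were also higher with CCPB than with diclosan, with or without the slide as a block. The blocked difference for this pair is that between the CCPB arrays and diclosan replicate 3 alone. On their brightest probes the 3 Cyp4f genes differed from DMSO by at most 0.06 log2 units in any group.

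**Figure D1:**
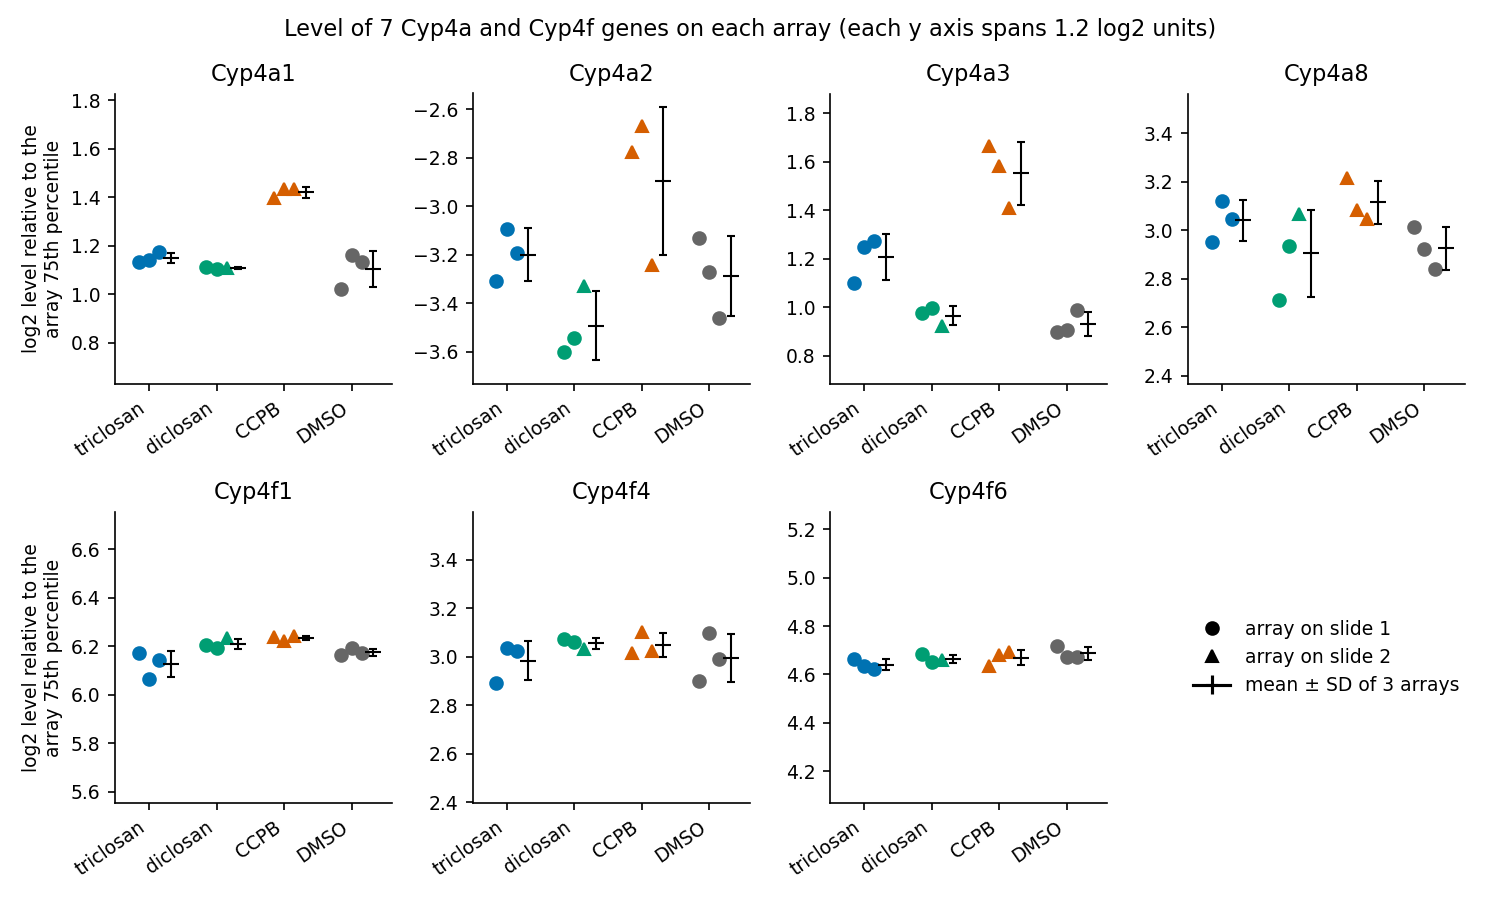
Level of each of the 7 genes on each array, as log2 intensity relative to the array's 75th percentile, by group. Points are arrays (circles slide 1, triangles slide 2), with the mean ± SD of 3 arrays beside them. The CCPB arrays of Cyp4a1 and Cyp4a3 lie above all other arrays, and the Cyp4f genes lie within narrow bands.

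Cyp4a1 encodes a lauric and arachidonic acid omega-hydroxylase and is the classical PPARalpha target of rat liver. Its level was 1.13, 1.14 and 1.17 with triclosan, 1.11, 1.10 and 1.11 with diclosan, 1.40, 1.43 and 1.43 with CCPB, and 1.02, 1.16 and 1.13 with DMSO. All 3 CCPB arrays were above the other 9, and the other 3 groups overlapped one another, except that each triclosan array was above each diclosan array. The means were 1.42 ± 0.02 with CCPB and 1.11 ± 0.07 with DMSO (SD, n = 3 each). The CCPB difference from DMSO was 0.32 (95% interval 0.23 to 0.40, limma adjusted p = 0.000466). Blocked by slide it was 0.32 (0.16 to 0.47, limma adjusted p = 0.0469). Diclosan replicate 3 on slide 2, at 1.11, lay 0.00021 above the mean of diclosan replicates 1 and 2. The differences from DMSO were 0.04 (-0.04 to 0.13) with triclosan and 0.0035 (-0.08 to 0.09) with diclosan, and both intervals held 0.

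Cyp4a3, an arachidonic acid omega-hydroxylase known from rat liver and kidney, showed the widest spread between groups. Its level was 1.10, 1.25 and 1.27 with triclosan, 0.98, 1.00 and 0.92 with diclosan, 1.66, 1.58 and 1.41 with CCPB, and 0.90, 0.91 and 0.99 with DMSO. The CCPB arrays were all above the triclosan arrays, which in turn were all above the diclosan and DMSO arrays, and diclosan and DMSO overlapped. The means were 1.55 ± 0.13 with CCPB and 0.93 ± 0.05 with DMSO (SD, n = 3 each). The CCPB difference from DMSO was 0.62 (0.47 to 0.77, limma adjusted p = 0.000266), and with the slide as a block 0.68 (0.40 to 0.97, limma adjusted p = 0.0245). The diclosan difference was 0.03 (-0.12 to 0.19). The triclosan difference was 0.28 (0.13 to 0.43), or 1.21-fold, and 3 of 3 arrays were higher. It did not pass after correction over all genes (limma unadjusted p = 0.00227, adjusted p = 0.171). Its limma adjusted p was 0.156 with the slide as a block and 0.171 within slide 1.

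The second Cyp4a3 probe, A_44_P1155497, gave the same order. Its level averaged -0.29 ± 0.13 with triclosan, -0.60 ± 0.16 with diclosan, 0.09 ± 0.11 with CCPB and -0.64 ± 0.12 with DMSO (SD, n = 3 each). In a limma fit over the 24254 kept probes its CCPB difference from DMSO was 0.72 (0.50 to 0.94, adjusted p = 0.000867). Blocked by slide it was 0.82 (0.40 to 1.23), and the limma adjusted p of 0.0505 then just missed the threshold. The Cyp4a1 probe lay just above the threshold in that blocked fit over probes, at a limma adjusted p that rounds to 0.05.

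Cyp4a2 encodes an arachidonic acid omega-hydroxylase best known from rat kidney. Its probe was the dimmest of those used for the 7 genes, though above background throughout. Its level was -3.31, -3.10 and -3.19 with triclosan, -3.60, -3.54 and -3.33 with diclosan, -2.78, -2.67 and -3.24 with CCPB, and -3.13, -3.27 and -3.46 with DMSO. CCPB replicates 1 and 2 were above all other arrays, CCPB replicate 3 lay among the triclosan and DMSO arrays, and the diclosan arrays were below all others except DMSO replicate 3, which was under diclosan replicate 3. The CCPB difference from DMSO was 0.39 (0.07 to 0.72) and did not pass (limma adjusted p = 0.0694). Without CCPB replicate 3 it was 0.57 and passed (limma adjusted p = 0.0109), and with the slide as a block it was 0.15 (-0.44 to 0.74). Diclosan replicate 3 was 0.24 above the mean of diclosan replicates 1 and 2. The differences from DMSO were 0.09 (-0.24 to 0.41) with triclosan and -0.21 (-0.53 to 0.12) with diclosan.

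Cyp4a8, known from rat kidney and prostate, had 3 probes. Its brightest probe, A_64_P040994, read 2.95, 3.12 and 3.05 with triclosan, 2.71, 2.93 and 3.07 with diclosan, 3.22, 3.08 and 3.05 with CCPB, and 3.01, 2.92 and 2.84 with DMSO. The CCPB arrays were all above the DMSO arrays and overlapped both triclosan and diclosan. Their difference from DMSO was 0.19 (-0.01 to 0.39, limma adjusted p = 0.140), and with the slide as a block it was -0.06 (-0.37 to 0.26). Diclosan replicate 3 was 0.25 above the mean of diclosan replicates 1 and 2, beside a CCPB difference of 0.19. The dimmer probes, A_44_P1105952 and A_44_P1141536, passed in the fit over probes without the block, at 0.37 (limma adjusted p = 0.0146) and 0.32 (limma adjusted p = 0.0467). Blocked by slide they were 0.35 and 0.31 and neither passed. Averaged over its 3 probes, Cyp4a8 passed at 0.29 (limma adjusted p = 0.00983). The 3 probes thus disagreed on whether the gene passed and, with the block, on its sign.

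Cyp4f1, a leukotriene B4 omega-hydroxylase first found in rat hepatoma, was read at 2 spots per array. Its level was 6.17, 6.07 and 6.14 with triclosan, 6.20, 6.19 and 6.23 with diclosan, 6.24, 6.22 and 6.24 with CCPB, and 6.16, 6.19 and 6.17 with DMSO. The diclosan and CCPB arrays were all above the DMSO arrays, by small margins. The differences from DMSO were -0.05 (-0.12 to 0.03) with triclosan, 0.04 (-0.04 to 0.11) with diclosan and 0.06 (-0.02 to 0.13) with CCPB. None passed the limma test.

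Cyp4f4 and Cyp4f6 encode further rat eicosanoid hydroxylases on chromosome 7. Cyp4f4 read 2.89, 3.04 and 3.02 with triclosan, 3.07, 3.06 and 3.03 with diclosan, 3.01, 3.10 and 3.02 with CCPB, and 2.90, 3.10 and 2.99 with DMSO. Cyp4f6 read 4.66, 4.64 and 4.62 with triclosan, 4.68, 4.65 and 4.66 with diclosan, 4.63, 4.68 and 4.69 with CCPB, and 4.72, 4.67 and 4.67 with DMSO. The groups overlapped for both genes, except that the triclosan arrays of Cyp4f6 were all below the DMSO arrays. The Cyp4f4 differences from DMSO were -0.01 with triclosan, 0.06 with diclosan and 0.05 with CCPB, and those of Cyp4f6 were -0.05, -0.02 and -0.02 in the same order of compounds. All 6 intervals held 0 and their outer bounds were -0.14 and 0.19. The second Cyp4f6 probe, A_64_P058850, was -0.09 (-0.17 to -0.01) with triclosan and -0.08 (-0.15 to -0.0005) with CCPB and passed in neither (limma adjusted p = 0.351 and 0.122).

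**Figure D2:**
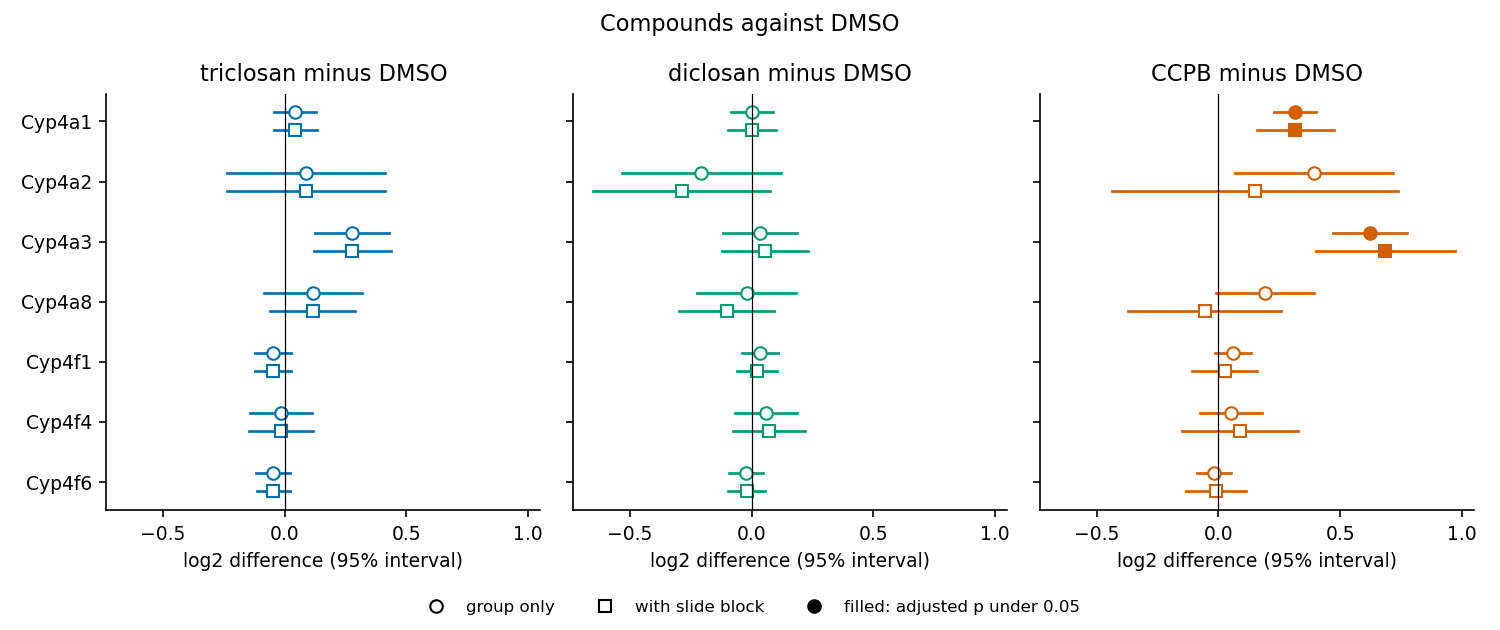
Difference of each gene from DMSO on the log2 scale with its 95% interval, for triclosan, diclosan and CCPB. Circles are the fit by group and squares the fit with the slide as a block, filled where the adjusted p was under 0.05. Filled symbols appear only for Cyp4a1 and Cyp4a3 with CCPB, in both fits, and the CCPB intervals are wider with the block.

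Counted over the 7 genes, 2 passed higher and 0 lower between CCPB and DMSO, where 28.3% of all genes tested passed in either direction and 14.1% passed higher. Taken in either direction, this count is near the share of all genes. The same 2 genes passed with the slide as a block, where 3.42% of all genes passed. The median difference of the 7 genes was 0.19, against 0.0039 for all genes, and with the block 0.09 against -0.0060. On 4 of the 7 genes (Cyp4a1, Cyp4a3, Cyp4a8 and Cyp4f1) the CCPB and DMSO arrays did not overlap, which held for 50.1% of all genes, so this count is near the background. For triclosan 0 of the 7 passed, where 0.0639% of all genes passed, and 1 (Cyp4a3) had an unadjusted limma p under 0.05, as did 2357 of all 20359 genes. The blocked fit gave 0 of 7 beside 0.221% of all genes, and slide 1 alone 0 of 7 beside 0.00491%. For diclosan 0 of the 7 passed, where 0.00982% of all genes passed, and 0 had an unadjusted limma p under 0.05, as against 2148 of all 20359 genes. The blocked fit gave 0 of 7 beside 0.0147%, and slide 1 alone 0 of 7 beside 0%. Arrays did not overlap with those of DMSO on 2 of the 7 genes for triclosan (Cyp4a3 and Cyp4f6), against 19% of all genes, and on 1 for diclosan (Cyp4f1), against 16%. The medians of the 7 genes were 0.04 with triclosan and 0.0035 with diclosan, against -0.0062 and 0.0036 for all genes. The 3 comparisons share the DMSO arrays.

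**Figure D3:**
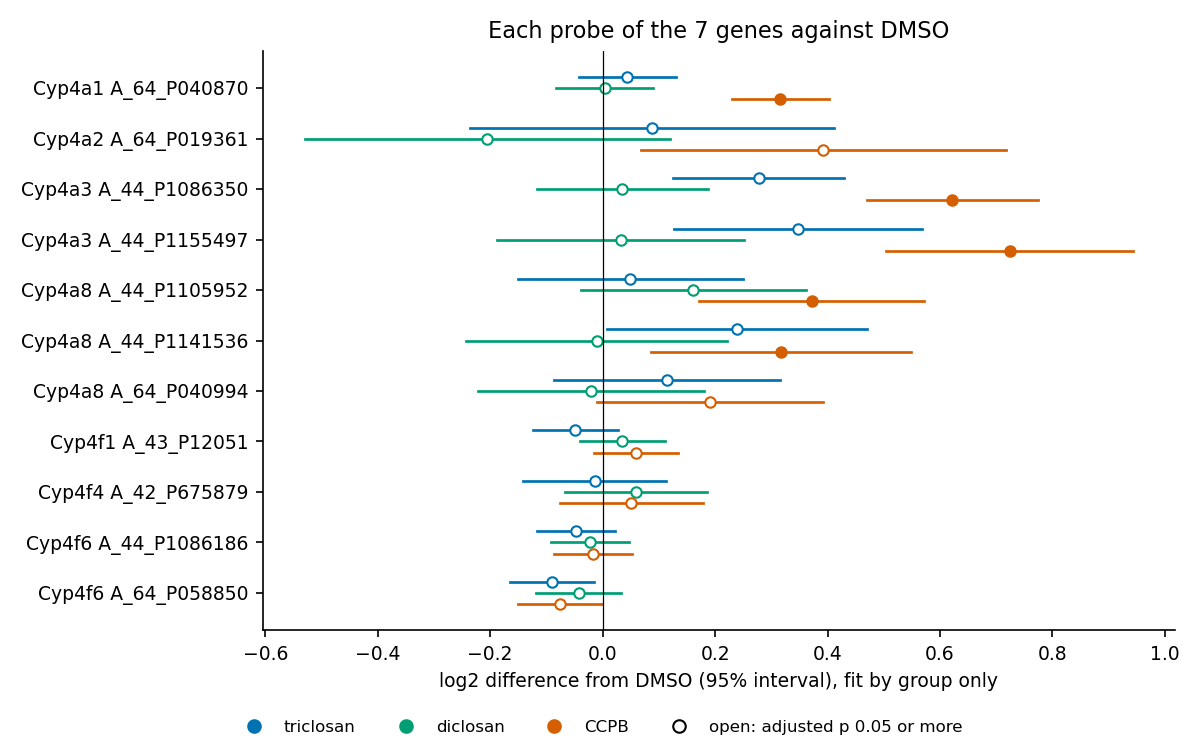
Difference from DMSO of each of the 11 probes of the 7 genes, on the log2 scale with 95% intervals, for triclosan, diclosan and CCPB, from the fit by group over all kept probes. Filled points have an adjusted p under 0.05. These are the Cyp4a1 probe, both Cyp4a3 probes and both dimmer Cyp4a8 probes, all with CCPB.

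The compounds were then set against each other at the same dose and time, in 3 pairs, with p-values adjusted within each pair over all genes. Triclosan and diclosan, which differ by a chlorine atom, differed on 0 of the 7 genes, and 0% of all genes passed between them. At an unadjusted limma p under 0.05 stood 2 of the 7, and 1385 of all genes. Cyp4a3 was 0.24 higher with triclosan (0.09 to 0.39, limma adjusted p = 0.569), with all 3 triclosan arrays above all 3 diclosan arrays, and Cyp4f1 was at -0.08 (-0.16 to -0.0086). The intervals of the other 5 held 0, the widest being Cyp4a2 at 0.29 (-0.03 to 0.62). Blocked by slide, Cyp4a2 was 0.37 (0.01 to 0.74, limma adjusted p = 0.655) and Cyp4a8 0.22 (0.02 to 0.41, limma adjusted p = 0.613), against 0.14 for Cyp4a8 without the block. The groups did not overlap on 4 of the 7 genes (Cyp4a1, Cyp4a2, Cyp4a3 and Cyp4f1), against 9.93% of all genes. With the slide as a block 0 of the 7 and 0.00491% of all genes passed, and within slide 1 0 of the 7 and 0% of all genes.

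Diclosan and CCPB, which differ by the hydroxyl group and by the position of a chlorine atom, differed on 3 of the 7 genes, all lower with diclosan, where 14.3% of all genes passed and 6.2% passed lower. Cyp4a1 was at -0.31 (-0.40 to -0.23, limma adjusted p = 0.000828) and Cyp4a3 at -0.59 (-0.74 to -0.44, limma adjusted p = 0.000574). Blocked by slide they were -0.31 (limma adjusted p = 0.0154) and -0.63 (limma adjusted p = 0.00983), and 4.9% of all genes passed. Cyp4a2 was at -0.60 (-0.92 to -0.27, limma adjusted p = 0.0234), and with the block at -0.44 (limma adjusted p = 0.289). Without diclosan replicate 1 or 2, or without CCPB replicate 1 or 2, Cyp4a2 no longer passed, and over 23 alternatives it passed in 14. With normexp background it was -0.28 and passed. Within slide 2, where 1 diclosan array meets 3 CCPB arrays, 0 of the 7 and 0% of all genes passed. The sizes there were -0.31 for Cyp4a1 (limma adjusted p = 0.137) and -0.63 for Cyp4a3 (limma adjusted p = 0.153), and the lone diclosan array was assumed to vary like the CCPB arrays. The Cyp4f intervals all held 0 and lay within -0.12 and 0.14. The groups did not overlap on the 3 genes that passed, against 32.3% of all genes.

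Triclosan and CCPB differ by the hydroxyl group, by the number of chlorine atoms and by the position of a chlorine atom. They differed on 3 of the 7 genes, all lower with triclosan, where 20.5% of all genes passed and 10.9% passed lower. Cyp4a1 was at -0.27 (-0.36 to -0.19, limma adjusted p = 0.00194), Cyp4a3 at -0.34 (-0.50 to -0.19, limma adjusted p = 0.00888) and Cyp4f1 at -0.11 (-0.18 to -0.03, limma adjusted p = 0.0481). The Cyp4f1 difference passed under 6 of 22 alternatives, and 2 of these were among the 12 that leave out 1 array. Without CCPB replicate 3, Cyp4a2 also passed, at -0.48 (limma adjusted p = 0.0304). Also on these 3 genes the groups did not overlap, against 43.4% of all genes. With the slide as a block 0 of the 7 passed, where 1.4% of all genes passed, at adjusted p of 0.109 for Cyp4a1, 0.168 for Cyp4a3 and 0.616 for Cyp4f1. The blocked differences were -0.27 (-0.43 to -0.11) for Cyp4a1 and -0.41 (-0.69 to -0.12) for Cyp4a3, close to those without the block but with wider intervals. Slide and compound cannot be told apart within this pair, nor between CCPB and DMSO.

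**Figure D4:**
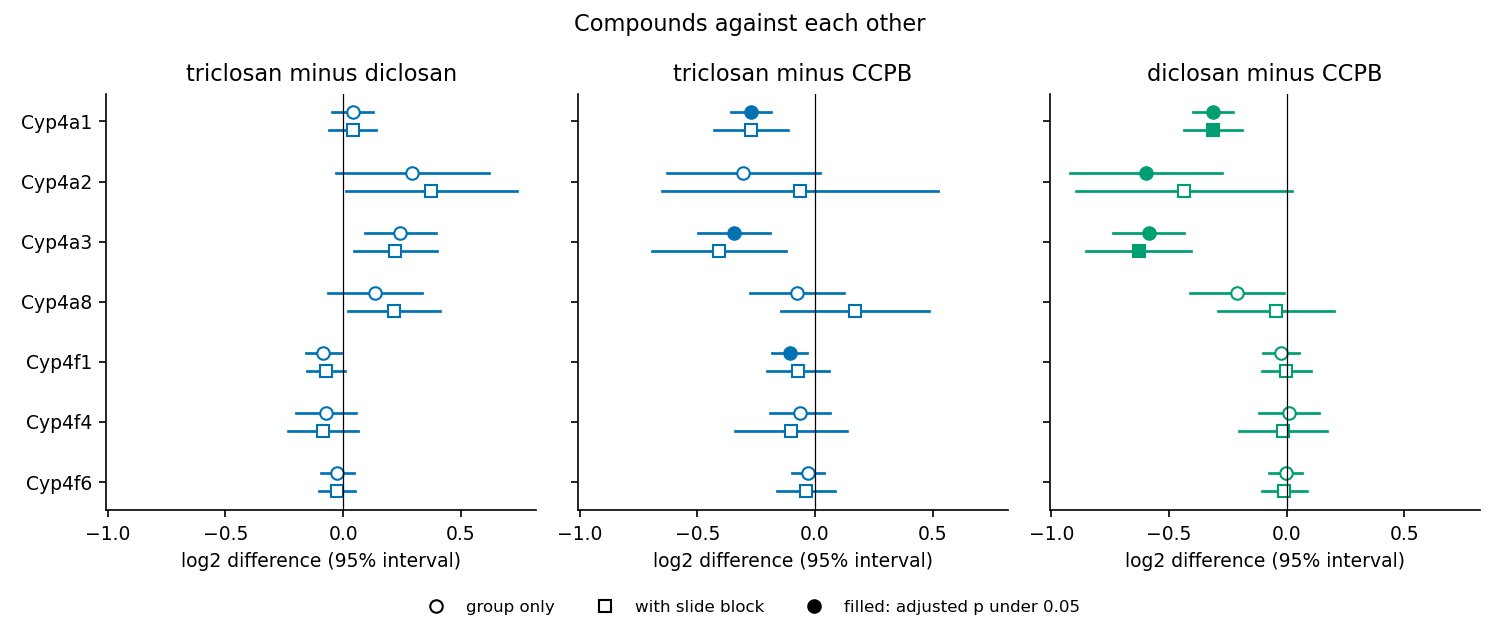
Difference of each gene between pairs of compounds on the log2 scale with its 95% interval (the compound named first minus the second). Circles are the fit by group and squares the fit with the slide as a block, filled where the adjusted p was under 0.05. Between triclosan and diclosan no symbol is filled, and with the block Cyp4a1 and Cyp4a3 are filled only between diclosan and CCPB.

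In order of mean level, Cyp4a1 and Cyp4a3 both ran from CCPB over triclosan and diclosan to DMSO. For both genes the step from CCPB to triclosan passed without the block and not with it, and the steps between triclosan, diclosan and DMSO did not pass. Cyp4a2 ran from CCPB over triclosan and DMSO to diclosan, and no neighbours in that order differed past the test. Cyp4a8 ran in the same order as Cyp4a2, also with no neighbours past the test. Cyp4f1 ran from CCPB over diclosan and DMSO to triclosan, Cyp4f4 from diclosan over CCPB and DMSO to triclosan, and Cyp4f6 from DMSO over CCPB and diclosan to triclosan. For these 3 genes no neighbours in order of level passed the test, and the group means of each gene spanned at most 0.11 log2 units.

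Other genes of the same route were read from lists chosen with earlier results of these data known. Of 9 other Cyp4 genes 5 were measured, and 2 passed higher with CCPB than with DMSO, beside 14.1% of all genes. Cyp4v3, a fatty acid omega-hydroxylase, was at 0.19 (limma adjusted p = 0.0222) and Cyp4f5 at 0.16 (limma adjusted p = 0.0304). Neither passed with the slide as a block. Cyp4b1, the lung-type member, differed from DMSO by 0.52 (0.09 to 0.95) with triclosan, 0.48 (0.05 to 0.91) with diclosan and -0.11 (-0.54 to 0.32) with CCPB, and passed in none (limma adjusted p = 0.350, 0.427 and 0.703). Its triclosan arrays were all above its DMSO arrays. Cyp4f17 was at 0.13 and did not pass (limma adjusted p = 0.0964).

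The enzymes that follow omega-hydroxylation were measured for 15 of 16 genes. With CCPB 6 passed higher and 1 lower, with a median difference of 0.10, where 28.3% of all genes passed in either direction and 14.1% higher. In the blocked fit 2 passed higher and 1 lower, where 3.42% of all genes passed. Adh4, which oxidises omega-hydroxy fatty acids, was 0.35 higher (limma adjusted p = 0.000532, and 0.0408 with the block). Abcd3, the peroxisomal carrier of long-chain and dicarboxylic acyl-CoA, was 0.21 higher (limma adjusted p = 0.000991, and 0.0246 with the block). Aldh1a1, an aldehyde dehydrogenase known for retinal, fell by 0.37 (limma adjusted p = 0.000244, and 0.0391 with the block).

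PPARalpha targets other than the Cyp4a genes were all measured, 30 of 30, and 3 of them also belong to the enzymes just described. With CCPB 13 passed higher, beside 14.1% of all genes tested, and 1 lower (Fgf21, a hepatic hormone of fasting, at -0.24), with a median of 0.11. Blocked by slide, 8 passed higher and 0 lower, with a median of 0.22, where 3.42% of all genes passed in either direction. Pdk4, the kinase that shuts down pyruvate dehydrogenase, read -2.29, -2.32 and -2.32 with triclosan, -2.77, -2.57 and -2.78 with diclosan, -1.62, -1.35 and -1.55 with CCPB, and -2.42, -2.71 and -2.72 with DMSO. The CCPB arrays were highest, and the triclosan arrays were also all above the DMSO arrays. Its CCPB difference was 1.11 (0.90 to 1.32, limma adjusted p = 7.01e-05, and 0.0102 with the block), and its triclosan difference was 0.30 (limma adjusted p = 0.275).

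Acot4, a peroxisomal thioesterase of dicarboxylic acyl-CoA, was 0.47 higher with CCPB (0.40 to 0.53, limma adjusted p = 1.75e-05, and 0.00495 with the block). Cpt1a and Cpt2, which carry fatty acids into mitochondria, were 0.44 and 0.37 higher and passed in both fits. With triclosan and with diclosan 0 of the 30 passed, where 0.0639% and 0.00982% of all genes passed. The medians of the 30 were 0.02 and -0.04 in that order.

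Among 12 regulators, 6 passed higher and 1 lower with CCPB (Pparg, the PPAR of adipose tissue, at -0.26), beside 28.3% of all genes in either direction. With the slide as a block 3 passed higher, beside 3.42% in either direction. Ppara itself was at -0.01 (-0.17 to 0.14) with CCPB, 0.08 with triclosan and -0.11 with diclosan, and Rxra at 0.14 (-0.01 to 0.30) with CCPB, none past the test. Nr0b2 (SHP), a repressor induced by bile acid signalling, was 2.09 higher with triclosan, 1.80 with diclosan and 2.25 with CCPB, and passed in each. It was the only regulator that passed with triclosan or diclosan. Nr1i3 (CAR) was 0.81 higher with CCPB (limma adjusted p = 0.000203, and 0.0494 with the block) and Nr1i2 (PXR) 0.27 higher (limma adjusted p = 0.00273, and 0.0240 with the block).

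The 4 genes of electron supply to P450 enzymes gave 2 higher and 1 lower with CCPB, beside 28.3% of all genes in either direction. Por, the reductase that feeds all microsomal P450 enzymes, was 0.40 higher (0.25 to 0.56, limma adjusted p = 0.00303), and 0.65 with the block (limma adjusted p = 0.00726). Cyb5a, a microsomal cytochrome b5, was 0.32 higher and its outer mitochondrial relative Cyb5b was at -0.17, and neither passed with the block. Cyb5r3 was at -0.02 and did not pass. Of 18 other enzymes of fatty acids and eicosanoids 10 were measured, and 3 passed higher and 2 lower with CCPB, beside 28.3% of all genes in either direction. In the limma fit with the block 0 passed in each direction, beside 3.42% of all genes in either direction. Ephx2, the soluble epoxide hydrolase, was 0.39 higher, the microsomal epoxide hydrolase Ephx1 0.31 and Cyp2j4 0.28. The lower genes were Cyp2c23, an arachidonic acid epoxygenase of rats, at -0.25 and Cyp2c11, a male-specific P450 of rat liver, at -0.23.

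**Figure D5:**
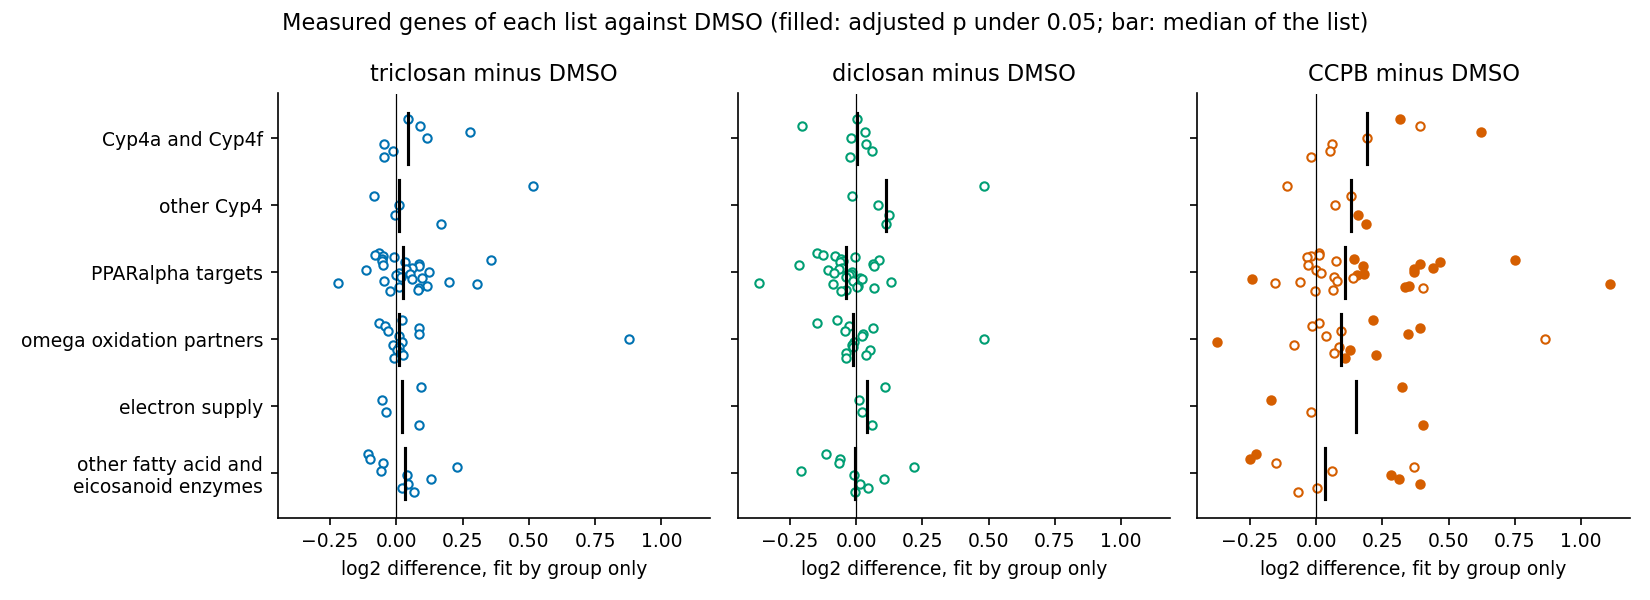
Difference from DMSO on the log2 scale of the measured genes of each list, for triclosan, diclosan and CCPB, from the fit by group. Each point is a gene, filled where the adjusted p was under 0.05, and the bar is the median of the list; regulators are not drawn. Filled points appear only with CCPB, and the medians with CCPB run from 0.03 to 0.19.

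Over the 12 arrays, the named genes whose level followed Cyp4a1 most closely (Pearson r) were Fah, an enzyme of tyrosine breakdown, at 0.985, Arg1, the urea cycle arginase, at 0.984, and the alcohol dehydrogenase Adh1c at 0.983. For Cyp4a3 they were Pex11a, a peroxisome division factor on the PPARalpha list, at 0.973, Lnc-hc at 0.948 and Gde1 at 0.942. For the other 5 genes the closest were Naa30 for Cyp4a2 (0.925), Zmym1 for Cyp4a8 (0.895), Stk16 for Cyp4f1 (0.927), Taok2 for Cyp4f4 (0.856) and Mrpl37 for Cyp4f6 (0.895). These are descriptions of 12 points that share slides and in which the CCPB arrays stand apart.

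Markers of other liver cells were read for each cell type apart, and their sums are compared between groups only. Of the markers, 4 of 10 for macrophages, 5 of 9 for stellate cells and fibroblasts, 3 of 8 for endothelial cells and 3 of 6 for cholangiocytes passed the filter on dim probes, and among those that did not were Marco, Adgre1, Pdgfrb, Pecam1, Stab2 and Krt19. Summed over the genes kept, in multiples of the 75th percentile, endothelial markers were 7.41 to 7.99 with triclosan, 7.90 to 9.56 with diclosan, 9.32 to 9.66 with CCPB and 7.98 to 8.48 with DMSO. The highest diclosan value was that of replicate 3. Cholangiocyte markers summed to 2.78 to 3.24 with triclosan, 2.79 to 3.05 with diclosan, 3.50 to 3.56 with CCPB and 2.77 to 2.96 with DMSO. Endothelial and cholangiocyte sums were thus higher on all CCPB arrays than on all DMSO arrays, where the arrays did not overlap on 50.1% of all genes. Each sum was carried mostly by a single gene. Vwf made up most of the endothelial sum, at log2 levels of 3.19 to 3.24 with CCPB and 2.97 to 3.05 with DMSO. Epcam made up most of the cholangiocyte sum, at log2 levels of 1.58 to 1.62 with CCPB and 1.25 to 1.34 with DMSO. Both passed higher with CCPB without the slide block (limma adjusted p = 0.0393 and 0.00956) and not with it. Macrophage markers summed to 0.771 to 1.03 with triclosan, 1.04 to 1.19 with diclosan, 0.928 to 1.05 with CCPB and 0.718 to 0.996 with DMSO. Those of stellate cells and fibroblasts summed to 1.38 to 2.33 with triclosan, 1.77 to 2.17 with diclosan, 1.91 to 1.98 with CCPB and 1.83 to 2.49 with DMSO. The macrophage sum was higher on all diclosan than on all DMSO arrays, and 0 of its 4 genes passed between them. Between CCPB and DMSO, 2 of 3 cholangiocyte, 1 of 3 endothelial, 1 of 5 stellate cell and fibroblast and 0 of 4 macrophage genes passed higher. Of all genes 14.1% passed higher, and with the slide as a block these markers did not pass. Of the 10 hepatocyte markers, 3 passed higher and 1 lower between CCPB and DMSO, beside 28.3% of all genes in either direction. With the slide as a block 1 passed higher and 0 lower, beside 3.42%. The part of other cells in the CCPB differences of Cyp4a1 and Cyp4a3 was not tested. In RNA of whole cultures, fewer cells of a type and less RNA per cell cannot be told apart.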

How the data were processed

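Intensity values were read from the authors' deposited scanner files. Per the file headers, Agilent Feature Extraction 10.7.1.1 had subtracted background and detrended each array, with no scaling across arrays. A deposited table of the authors' processed signal per probe, linear and with every array's 75th percentile near 1, served as an alternative. No column of another sample was present (0). Detrending and its floor can narrow the differences of dim spots, which was not tested. The median absolute CCPB difference from DMSO over all genes was 0.130 on this signal and 0.103 with normexp background. A percentile scale takes the bright transcripts as level on the whole.

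After spots flagged as non-uniform were left out, log2 values of the spots of a probe were averaged over the 58717 spots that were not controls, and the 75th percentile of each array over probes was subtracted. Probes above background on all arrays of any group were kept (24254 of 45598), and the brightest kept probe stood for a gene. All 12 arrays were fitted by group with limma 3.58.1 in R 4.3.3; tests were two-sided, and a difference passed at an adjusted p (Benjamini-Hochberg, over 20359 genes or transcripts) below 0.05. Intervals are 95% and unadjusted, and their half-width was 0.145 log2 units at the median over all genes tested. The number of arrays limits the precision. The fit was tested on simulated data that held no slide step, so that test says nothing about the slide.

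Genes were named through a rat RefSeq table (build GRCr8), which matched 21229 probes. The members and gene lists were chosen with earlier results of these data known. Named genes were the 7 members, up to 4 measured genes of each of 6 lists with the smallest p in any compound minus DMSO comparison, and the 3 genes most correlated with each member (for 5 members the text gives the first of them). Some genes that this rule names are not reported here. Fgf21, Pparg, Cyp2c11, Ppara, Rxra, Vwf and Epcam fall outside that rule and were named after their values were seen. Marker lists were checked for 5 cell types. Alternatives were normexp background (offset 50, on median spot signals in place of the planned mean), median centring, the value table, other filters and probe rules, blocks for slide and replicate number, the compared groups alone, and leaving out each array.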

Additional observations from a re-analysis of the deposited data

How the results depend on the processing

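The number of the 7 genes past the test was 2 between CCPB and DMSO, 3 between diclosan and CCPB, 3 between triclosan and CCPB, and 0 in the other comparisons. With normexp background it was 4 between CCPB and DMSO, which added Cyp4a8 (0.25, limma adjusted p = 0.0352) and Cyp4f1 (0.13, limma adjusted p = 0.0345). Of all 20359 genes 6245 then passed, against 5760. Between triclosan and CCPB normexp background also gave 4, which added Cyp4f6 (-0.14, limma adjusted p = 0.0210). There 5099 of all genes passed, against 4176 without it. The CCPB difference of Cyp4f6 from DMSO ran from -0.05 to 0.10 over 22 alternatives and passed in 0. With the mean of all kept probes Cyp4a8 also passed, which gave 3 between CCPB and DMSO and 4 between diclosan and CCPB (-0.25, limma adjusted p = 0.0303). Of all genes, 5619 and 2849 then passed, in that order. Leaving out each array in turn gave 2 to 3 between CCPB and DMSO, beside 3663 to 7068 of all genes. It gave 2 to 4 between diclosan and CCPB, beside 1650 to 5428, and 2 to 3 between triclosan and CCPB, beside 2113 to 5617. In each of the other comparisons the number of the 7 genes stayed 0. With the slide as a block it was 0 between triclosan and CCPB, and within slide 2 alone, a setting chosen after seeing the data, 0 between diclosan and CCPB. Of all genes, 285 passed between triclosan and CCPB with the slide block, against 4176 without it. The cause was not tested.

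Deviations of same-numbered arrays correlated at -0.165 to 0.117 over 18 pairs, with 1 above 0.1. Those of arrays with different numbers correlated at -0.171 to 0.173 over 36 pairs, with 7 above 0.1. Whether the replicate numbers pair the arrays cannot be told from these values. With a replicate block the counts were 2, 3 and 2 for the comparisons with CCPB in the order above and 0 for the others. Of all genes, 5519, 2862 and 3783 passed in the comparisons with CCPB. With the replicate and slide blocks together the counts of the 7 genes were 0 between CCPB and DMSO, 2 between diclosan and CCPB and 0 between triclosan and CCPB. Of all 20359 genes, 300, 580 and 12 passed in these comparisons, in that order. Cyp4a1 then had 0.35 (limma adjusted p = 0.0712) and Cyp4a3 0.67 (limma adjusted p = 0.095) between CCPB and DMSO, and Cyp4a2 had -0.11 there and -0.26 between diclosan and CCPB, neither past the test.

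Over 22 alternatives the CCPB difference from DMSO ran from 0.27 to 0.35 for Cyp4a1 and from 0.57 to 0.69 for Cyp4a3, and both passed in 21. The lower Cyp4a2 with diclosan than with CCPB was lost without diclosan replicate 1 or 2, or without CCPB replicate 1 or 2 (-0.57 to -0.48), with no filter on dim probes, with the compared groups alone, with the slide block, with or without the replicate block, and within slide 2. The Cyp4f1 difference between triclosan and CCPB passed under 6 of 22. Over single genes, 911 alternatives kept the call, 33 lost one and 8 gained one, and no called difference changed sign. Among the 911, 29 differences that had not passed changed sign. With median centring 3326 of all genes passed between CCPB and DMSO, against 5760. The number of arrays limits what can be seen: a difference under about 0.145 log2 units is within the typical interval.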
